A study of Mus musculus with 90 samples.

Results

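This account covers 10 imprinted genes in mouse liver: the long non-coding RNAs Meg3, Rian, Mirg and H19, and the protein-coding genes Dlk1, Igf2, Igf2r, Cdkn1c, Grb10 and Peg3. They were 10 of the 24475 genes counted in 90 liver libraries. The genes were chosen by measured values of these same libraries, because Meg3, Rian and H19 were high in several knockdown groups with wide spread between libraries. Every value from a knockdown contrast is therefore given as a description, with no p-value.

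Knockdown was by an adeno-associated virus of serotype AAV8 that carried a short hairpin RNA. Experiment 2 controls are labelled Control AAV, and the labels do not say what the vector of either control carried. Experiment 1 held 5 groups of 10 libraries. The hairpins lowered protein kinase A itself (PKA KD), the stimulatory G protein alpha subunit (Gnas KD), the glucagon receptor (Gcgr KD) or the cAMP sensor Epac2 (Epac2 KD), and the comparison group was named Control. Experiment 2 held 4 groups of 10 libraries. These were Prkar1a KD + Gcgr mAb, Prkar1a KD + Control mAb, Control AAV + Gcgr mAb and Control AAV + Control mAb, where Prkar1a encodes an inhibitory regulatory subunit of PKA and mAb is an antibody against the glucagon receptor or a control antibody. The labels give no strain, sex, age or hairpin sequence. Libraries are numbered within a group, and no label ties each number to its own animal. The p-values therefore reflect how these samples spread, and part of that spread may be technical.

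Imprinted genes are expressed from the copy inherited from one parent. Meg3, Rian and Mirg are non-coding RNAs read in the same direction from the maternal copy of the Dlk1-Dio3 cluster, and Rian and Mirg host small nucleolar RNAs and microRNAs. Dlk1, a transmembrane Notch-like protein of immature cells, is read from the paternal copy of that cluster. H19 and Igf2 form a second pair, with maternal H19 RNA and paternal insulin-like growth factor. In mouse liver this pair is active before birth and falls silent afterwards, while H19 stays on in skeletal muscle. The cAMP pathway runs from the glucagon receptor through Gnas to cAMP, which frees the catalytic subunits Prkaca and Prkacb from regulatory subunits such as Prkar1a. Free PKA phosphorylates CREB, a transcription factor that binds the cAMP response element.

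In the GRCm38.p6 annotation from RefSeq, Meg3 lies on chromosome 12 at 109540996 to 109571729, Rian at 109603945 to 109661716, Mirg at 109734981 to 109749458 and Dlk1 at 109452485 to 109463336. H19 lies on chromosome 7 at 142575530 to 142578146, next to Igf2 at 142650768 to 142666816. Cdkn1c lies further along chromosome 7 at 143458339 to 143461059, and Peg3 near its other end at 6703892 to 6730462. Igf2r is on chromosome 17 at 12682406 to 12769706 and Grb10 on chromosome 11 at 11930499 to 12037428.

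RefSeq promoter windows, 250 bases before to 50 bases after an annotated start, were matched for 8 of the 10 genes, 13 windows in all. The Meg3, Peg3 and Rian windows are shown because the RNAs of these genes were high in both PKA KD and Prkar1a KD livers, and because the first pair holds the full cAMP response element and the third does not. Mirg RNA was also high in those livers, on few counts, and its window, not shown, did not hold the full element. Capitals mark the full element, TGACGTCA, which reads the same on both strands.
Meg3, chr12:109540746-109541045, plus strand: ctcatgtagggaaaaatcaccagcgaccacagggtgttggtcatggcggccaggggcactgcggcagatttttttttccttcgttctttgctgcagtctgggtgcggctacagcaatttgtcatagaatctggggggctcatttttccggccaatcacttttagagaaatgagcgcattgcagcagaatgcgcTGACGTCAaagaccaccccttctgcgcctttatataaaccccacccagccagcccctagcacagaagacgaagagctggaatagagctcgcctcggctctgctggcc
Peg3, chr7:6730370-6730669, minus strand: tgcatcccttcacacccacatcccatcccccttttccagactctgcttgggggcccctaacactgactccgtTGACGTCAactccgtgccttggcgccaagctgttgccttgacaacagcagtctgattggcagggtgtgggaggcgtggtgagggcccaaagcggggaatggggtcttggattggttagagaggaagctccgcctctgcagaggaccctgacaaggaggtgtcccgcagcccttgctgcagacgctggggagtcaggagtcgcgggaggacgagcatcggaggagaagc
Rian, chr12:109603695-109603994, plus strand: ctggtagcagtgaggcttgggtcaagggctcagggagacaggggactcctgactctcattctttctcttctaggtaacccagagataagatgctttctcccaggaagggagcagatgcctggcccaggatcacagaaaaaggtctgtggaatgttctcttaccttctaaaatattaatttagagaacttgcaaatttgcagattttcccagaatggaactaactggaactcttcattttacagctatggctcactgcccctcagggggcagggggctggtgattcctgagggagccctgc

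The element began 57 bases before the Meg3 start and 178 bases before the Peg3 start. No other window of these genes held it in full, including a second Meg3 window at chr12:109545148-109545447. The shorter 5-base core, TGACG or its reverse complement CGTCA, was present in 7 of the 13 windows, which included the Meg3 and Peg3 elements themselves and windows of Dlk1, Igf2, Igf2r and Grb10. Among all 32851 windows of the table, 588 (1.79%) held the full element and 6837 (20.8%) held the core. The genes were chosen by their levels in these livers, so their windows are not set against those shares. A match describes these letters only and says nothing of binding in these livers.

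The libraries held 20813066 to 33709500 counts in experiment 1 and 8870340 to 19481413 in experiment 2. Levels are counts-per-million values (CPM), after scaling of the library sizes. They have no length term, so they are compared between groups and not between genes. The targeted RNAs followed the labels. Prkaca was 7.34 to 23.4 CPM in PKA KD livers against 85.6 to 107 in Control. Prkacb was 6.73 to 13.8 against 34.7 to 44.6 CPM in the same groups. Gnas was 34.9 to 94.2 CPM in Gnas KD livers against 339 to 403 in Control. Gcgr was 38.3 to 54.1 CPM in Gcgr KD livers against 146 to 218 in Control, and Rapgef4, the gene of Epac2, was 5.19 to 14.5 CPM in Epac2 KD livers against 68.7 to 122 in Control. Prkar1a was at most 41.4 CPM in both Prkar1a KD groups and at least 97.8 CPM in both Control AAV groups. None of these target ranges overlapped their controls. Summed hepatocyte markers were high in every library, the lowest sum of the 7 markers being 28100 CPM, in the Prkar1a KD + Gcgr mAb group.

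A few libraries of experiment 2 stood apart, and they touch the H19 results below. Prkar1a KD + Gcgr mAb replicate 2 held skeletal muscle RNA, with 645 CPM summed over 7 muscle markers against an experiment median of 0.542. Control AAV + Gcgr mAb replicate 3 held pancreas RNA, with 353 CPM over 4 pancreas markers against a median of 6.34. Control AAV + Gcgr mAb replicate 2 had a summed cell-cycle marker level of 90.4 CPM, where the highest of the other libraries in its group had 14.6. Its stellate sum of 794 and Kupffer cell sum of 623 CPM were also the highest of its group, where the other libraries reached 451 and 323. A Control AAV + Control mAb library reached 14.5 CPM of muscle markers. The muscle and cell-cycle lists were written after these values were seen.

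Meg3 levels spanned a wide range between groups. In experiment 1 the lowest, median and highest levels were 4.59, 39.3 and 114 CPM in PKA KD livers, 0.825, 4.62 and 16.5 in Gnas KD livers, 1.02, 1.54 and 3.03 in Gcgr KD livers, 1.07, 1.44 and 6.12 in Epac2 KD livers, and 0.682, 1.0 and 1.5 in Control. All 10 PKA KD libraries lay above every Control library, as did 9 of 10 Gnas KD, 5 of 10 Gcgr KD and 4 of 10 Epac2 KD libraries. The fitted change from Control, on the log2 scale, was 5.26 ± 0.48 (SE) in PKA KD, 2.45 ± 0.46 in Gnas KD, 0.69 ± 0.48 in Gcgr KD and 0.86 ± 0.49 in Epac2 KD. Ordered by median, PKA KD and Gnas KD differed by more than the larger of their SDs, although their ranges overlapped. Gnas KD, Gcgr KD, Epac2 KD and Control did not differ from their neighbours in that order beyond their SDs. In these bulk libraries a change in the number of cells that hold an RNA and a change in the RNA per cell cannot be told apart.

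In experiment 2 Meg3 was high in both Prkar1a KD groups. The lowest, median and highest levels were 24.3, 70.5 and 110 CPM in Prkar1a KD + Gcgr mAb livers and 30.8, 53.9 and 89.3 in Prkar1a KD + Control mAb livers. They were 0.636, 1.64 and 3.69 CPM in Control AAV + Gcgr mAb livers and 0.267, 1.23 and 6.7 in Control AAV + Control mAb livers. No Prkar1a KD library overlapped any Control AAV library. The fitted log2 change of Meg3 with Prkar1a KD was 5.26 ± 0.35 under the Gcgr antibody and 4.88 ± 0.34 under the control antibody. Meg3 RNA was high both where the catalytic subunits were lowered and where an inhibitory subunit was lowered.

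Rian, the host of a large set of small nucleolar RNAs in the same cluster, was high in the same groups. Its lowest, median and highest levels were 0.664, 4.67 and 14.8 CPM in PKA KD livers, 0.173, 0.459 and 4.05 in Gnas KD livers, and 0.0492, 0.174 and 0.36 in Control. The Gcgr KD and Epac2 KD medians were 0.29 and 0.252 CPM. The Control values rest on 1 to 9 counts per library, so single-library Control levels of Rian are coarse. All PKA KD libraries and 7 of 10 Gnas KD libraries lay above the highest Control library. In experiment 2 Rian spanned 12.3 to 46.8 CPM in Prkar1a KD + Gcgr mAb livers and 14 to 40.2 in Prkar1a KD + Control mAb livers. It spanned 0.484 to 1.16 CPM in Control AAV + Gcgr mAb livers and 0.0897 to 1.42 in Control AAV + Control mAb livers. The Prkar1a KD and Control AAV groups did not overlap. Fitted log2 changes of Rian were 4.77 ± 0.51 in PKA KD, 2.41 ± 0.53 in Gnas KD, 5.6 ± 0.26 in Prkar1a KD under the Gcgr antibody and 5.68 ± 0.27 under the control antibody.

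Mirg, the most distal RNA of this transcription unit and a microRNA host, had few counts outside PKA KD and the Prkar1a KD groups. Its summed counts over 10 libraries were 119 in PKA KD, 26 in Gnas KD, 8 in Gcgr KD, 12 in Epac2 KD and 2 in Control. In experiment 2 they were 204 in Prkar1a KD + Gcgr mAb, 187 in Prkar1a KD + Control mAb, 8 in Control AAV + Gcgr mAb and 2 in Control AAV + Control mAb. Scaled for library size, the ratio of summed Mirg counts was 55.1 in PKA KD over Control (exact 95% counting interval 14.9 to 460). It was 12.3 (3.09 to 107) in Gnas KD, 3.78 (0.753 to 36.5) in Gcgr KD and 6.51 (1.45 to 59.9) in Epac2 KD, each over the 2 counts of Control. It was 26.3 (13.1 to 61.8) in Prkar1a KD over Control AAV under the Gcgr antibody, and 84.5 (23.1 to 702) under the control antibody. These intervals cover counting error only. Mirg passed the low-count filter in experiment 2 through the Prkar1a KD groups in which it was high, and did not pass it in experiment 1.

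Dlk1, the paternal coding gene of the same cluster, did not share this pattern in any visible way. It had at most 5 counts in any of the 90 libraries and failed the low-count filter in both experiments. Its summed counts were 19 in PKA KD, 14 in Gnas KD, 8 in Gcgr KD, 9 in Epac2 KD and 12 in Control. They were 3 in Prkar1a KD + Gcgr mAb, 0 in Prkar1a KD + Control mAb, 4 in Control AAV + Gcgr mAb and 6 in Control AAV + Control mAb. A difference between groups was not detectable at this depth.

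**Figure D1:**
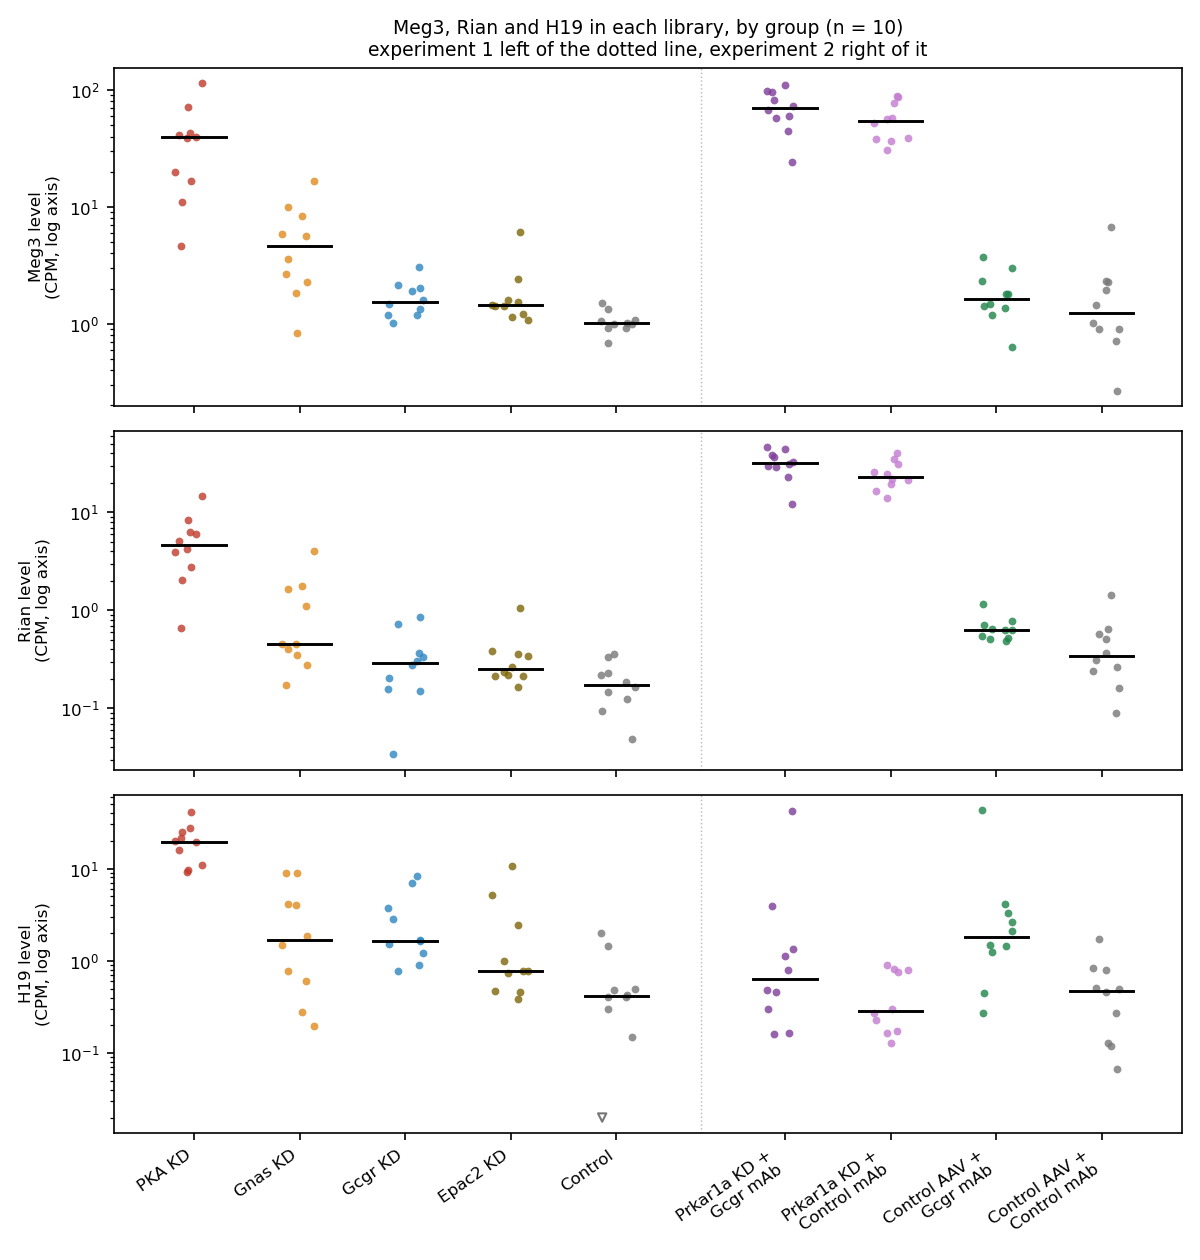
Levels of Meg3, Rian and H19 in each of the 90 libraries (CPM on a log axis), with groups along the x axis, 1 point per library and a black bar at the group median; the open triangle marks 1 Control library with no H19 count, drawn below the scale. Meg3 and Rian are high in PKA KD and in both Prkar1a KD groups, whereas H19 is high in PKA KD and, outside 1 library, stays at or below 3.88 CPM in the Prkar1a KD groups.

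The proportion of Rian to Meg3 had a higher median in the Prkar1a KD groups than in any other group. The median number of Rian counts per 100 Meg3 counts was 14.5 in PKA KD, 18.1 in Gnas KD, 14.2 in Gcgr KD, 17.0 in Epac2 KD and 18 in Control. In experiment 2 it was 46.4 in Prkar1a KD + Gcgr mAb and 45.2 in Prkar1a KD + Control mAb livers. It was 33.0 in Control AAV + Gcgr mAb and 21.8 in Control AAV + Control mAb livers, where as few as 74 Rian counts in a whole group stood behind the value. Libraries of Control and of Control AAV + Control mAb overlapped, at 5.0 to 36.0 and 12.5 to 100. Between libraries the proportion ran from 10.9 to 20 in PKA KD livers and from 35.9 to 54.8 in the Prkar1a KD livers, so these ranges did not overlap. The experiments were separate tables with their own controls, and that difference was not tested.

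The members were chosen for the level and spread of each gene. How pairs of them varied together between libraries of 1 group was tested by permuting the pairing, which keeps the spread of each gene as it was. The choice was made on these same libraries, so the p-values are no independent support. Over 18 pairs of member and group with enough counts, 7 Pearson correlations of log2 CPM passed an adjusted permutation p of 0.05. Meg3 and Rian moved together in PKA KD livers (r = 0.98, rho = 0.99, n = 10, adjusted permutation p = 9e-05, unadjusted p = 1e-05, the smallest the permutations can give). They also did so in Prkar1a KD + Gcgr mAb livers (r = 0.98, rho = 0.98, n = 10, adjusted permutation p = 9e-05), Prkar1a KD + Control mAb livers (r = 0.94, rho = 0.93, adjusted p = 0.00078) and Gnas KD livers (r = 0.83, rho = 0.83, adjusted p = 0.00801). Without the 2 libraries farthest from the Meg3 median, r stayed at 0.83 to 0.95 in these 4 groups. In Control AAV + Gcgr mAb livers, where both RNAs were low, r was 0.48 (rho = 0.15, n = 10, adjusted permutation p = 0.297).

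Meg3 and Mirg were also correlated in Prkar1a KD + Control mAb livers (r = 0.87, rho = 0.76, n = 10, adjusted permutation p = 0.00666) and in Prkar1a KD + Gcgr mAb livers (r = 0.76, rho = 0.75, adjusted p = 0.0237). Leaving out the 2 libraries farthest from the Meg3 median gave 0.77 and 0.56. The Prkar1a KD + Gcgr mAb library with muscle RNA had the lowest Meg3, Rian and Mirg of its group, 24.3, 12.3 and 0.459 CPM. The Dlk1 counts were too low in every group for its correlation with Meg3 to be computed.

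**Figure D2:**
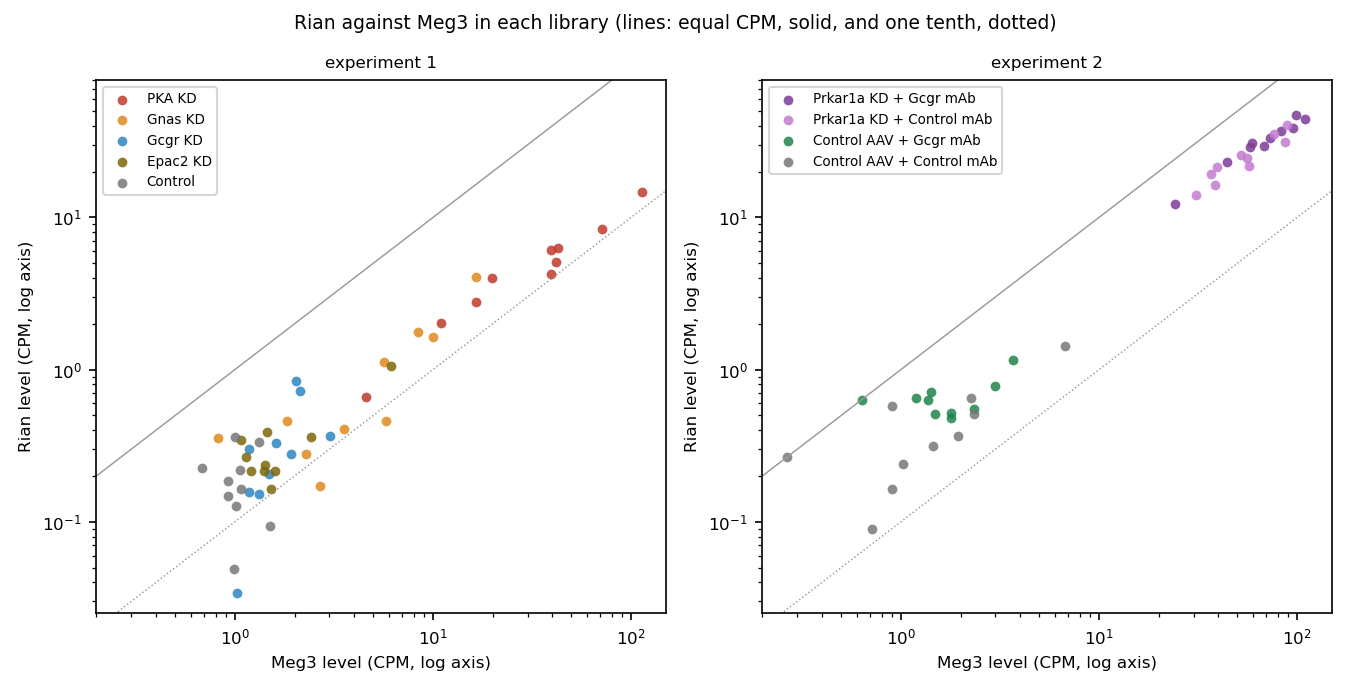
Rian level against Meg3 level in each library (CPM, both log axes), experiment 1 on the left and experiment 2 on the right, with 1 point per library coloured by group; the solid line marks equal CPM and the dotted line Rian at 10 per 100 of Meg3. The points of PKA KD run close to the dotted line, while the points of both Prkar1a KD groups lie between the lines.

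Within 2 of the knockdown groups Meg3 was inversely related to how much of the targeted RNA was left. Meg3 and H19 were chosen partly for their spread between these same libraries. The p-values of their relations with targeted RNAs and with summed markers are therefore no independent support. In Gnas KD livers Meg3 fell with residual Gnas (r = -0.88, rho = -0.88, n = 10, adjusted permutation p = 0.00732). The library with the most Gnas, 94.2 CPM, had the least Meg3, 0.825 CPM, and the library with the least Gnas, 34.9 CPM, had the most Meg3, 16.5 CPM. In PKA KD livers Meg3 fell with residual Prkaca (r = -0.87, rho = -0.77, n = 10, adjusted permutation p = 0.00732) and Prkacb (r = -0.80, rho = -0.68, adjusted p = 0.0131 for r and 0.0933 for rho). The library with the most Prkaca, 23.4 CPM, had the least Meg3, 4.59 CPM. Without the 2 libraries farthest from the Meg3 median, r was -0.76 for Gnas, -0.66 for Prkaca and -0.59 for Prkacb.

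No such relation passed the test elsewhere. For Meg3, r was 0.07 with Gcgr in Gcgr KD livers and -0.24 with Rapgef4 in Epac2 KD livers (adjusted permutation p = 0.937 and 0.915, n = 10 each). With Prkar1a it was -0.28 in Prkar1a KD + Gcgr mAb livers and 0.08 in Prkar1a KD + Control mAb livers (adjusted permutation p = 0.729 and 0.937). Prkar1a itself spanned only 30.2 to 41.4 and 28.6 to 35.1 CPM in those groups. In all, 12 relations with a targeted RNA were computed, and 4 Pearson and 3 Spearman values passed.

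H19 ran the other way in Gnas KD livers. It rose with residual Gnas (r = 0.83, rho = 0.90, n = 10, adjusted permutation p = 0.0086) and was inversely related to Meg3 (r = -0.88, rho = -0.81, adjusted p = 0.00445). Without the 2 libraries farthest from the median, these were 0.77 and -0.79. The libraries with 16.5, 10 and 8.39 CPM of Meg3 had 0.196, 0.782 and 0.28 CPM of H19. In PKA KD livers the relation of H19 to Meg3 had the same sign without passing (r = -0.60, rho = -0.52, n = 10, adjusted permutation p = 0.148), and so did Gcgr KD livers (r = -0.54, rho = -0.62, adjusted p = 0.219). In Control AAV + Gcgr mAb livers r was 0.01 and turned to 0.51 without the 2 libraries farthest from the median.

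**Figure D3:**
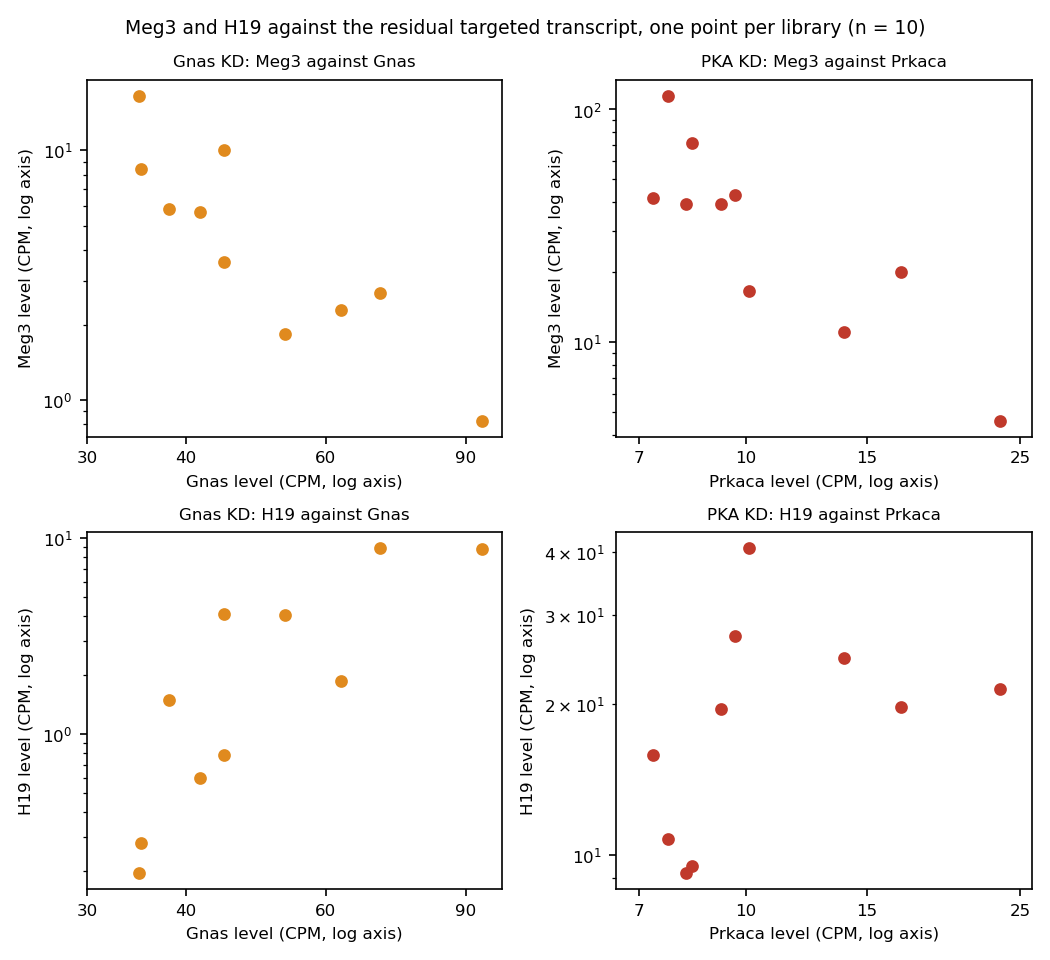
Level of Meg3 (top) and H19 (bottom) against the level of Gnas in the 10 Gnas KD libraries (left) and of Prkaca in the 10 PKA KD libraries (right), CPM on log axes with 1 point per library. Meg3 is lowest where the target is highest in both groups, and H19 is highest where Gnas is high in the Gnas KD group.

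H19, the maternal RNA of the fetal pair, was highest in PKA KD livers. Its lowest, median and highest levels were 9.23, 19.6 and 40.7 CPM in PKA KD livers, 0.196, 1.68 and 8.88 in Gnas KD livers, 0.77, 1.65 and 8.32 in Gcgr KD livers, 0.383, 0.775 and 10.6 in Epac2 KD livers, and 0, 0.413 and 2.02 in Control. The PKA KD range lay above those of Control, Gcgr KD and Gnas KD, and 1 Epac2 KD library reached into it. The next neighbours in the order, Gnas KD, Gcgr KD, Epac2 KD and Control, overlapped and did not differ beyond their SDs. Fitted log2 changes from Control were 4.97 ± 0.67 in PKA KD, 2.32 ± 0.66 in Gnas KD, 2.24 ± 0.66 in Gcgr KD and 1.89 ± 0.67 in Epac2 KD. The summed cholangiocyte markers, of bile duct cells, also had medians above Control in each knockdown group. Their medians were 71.2 CPM in PKA KD, 86.3 in Gnas KD, 79.7 in Gcgr KD and 50.5 in Epac2 KD, against 37.2 in Control. Their ranges overlapped, with 37.8 to 312 CPM in PKA KD and 28.1 to 103 in Control. Of 5 tested cholangiocyte markers 2 were called higher in PKA KD, 2 in Gnas KD, 0 in Gcgr KD and 1 in Epac2 KD. The shares of all genes called were 32.4%, 15.2%, 7.23% and 4.56%. The part of these markers in the H19 level was not tested.

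In experiment 2 H19 did not follow Meg3. Its lowest, median and highest levels were 0.159, 0.634 and 41.9 CPM in Prkar1a KD + Gcgr mAb livers and 0.129, 0.288 and 0.897 in Prkar1a KD + Control mAb livers. They were 0.274, 1.79 and 42.9 CPM in Control AAV + Gcgr mAb livers and 0.0667, 0.472 and 1.73 in Control AAV + Control mAb livers. All of these ranges overlapped. The level of 41.9 CPM was the library with muscle RNA, whose group reached 3.88 CPM otherwise, and the level of 42.9 was the library with high cell-cycle markers, whose group reached 4.12 otherwise. The fitted log2 change of H19 with Prkar1a KD was -0.25 ± 1.2 under the control antibody. Under the Gcgr antibody it was -0.39 ± 0.79, and it moved to -2.60 without the muscle library and to 1.27 without the cell-cycle library, so these libraries decided its sign.

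The antibody contrasts compare groups with the same hairpin, and changes with the antibody were not a reason for the choice of the genes, so they were tested. The choice did use the spread between these same libraries, so the p-values of members are no independent support. Between Control AAV + Gcgr mAb and Control AAV + Control mAb livers, 1 of the 9 tested members was called at an adjusted p of 0.05 (edgeR quasi-likelihood test, Benjamini-Hochberg over 12847 genes), while 8.19% of all genes were called. That member was H19, at 6.0 ± 13 CPM with the Gcgr antibody against 0.539 ± 0.497 with the control antibody (SD, n = 10 each). Its log2 fold change was 3.45 ± 0.96 (SE, adjusted p = 0.0183 by edgeR's quasi-likelihood test). With the Gcgr antibody 8 of 10 libraries lay above the median of the control antibody group and 5 of 10 above its highest library. Without the library with high cell-cycle markers the change was 1.79 (edgeR adjusted p = 0.202) and the call was lost. The adjusted p ran from 0.000846 to 0.202 over the alternatives, and the part of cell-cycle, stellate or Kupffer cell RNA in the H19 level was not tested.

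The other members did not pass in that contrast. Meg3 differed by -0.03 ± 0.40 (adjusted p = 0.976), Rian by 0.46 ± 0.38 (0.495) and Grb10 by 0.45 ± 0.19 (0.13) on the log2 scale, by edgeR. Mirg differed by 1.44 ± 0.79, on 8 summed counts with the Gcgr antibody and 2 with the control antibody. It passed the low-count filter only through the Prkar1a KD groups, so its change is a description. Rian lay above the control antibody median in 10 of 10 libraries, yet within its range in all of them. Grb10, a growth-restraining adaptor of insulin and IGF receptors, reached 7.98 CPM in the library with high cell-cycle markers, where the rest of the group stayed at or below 3.75.

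Between Prkar1a KD + Gcgr mAb and Prkar1a KD + Control mAb livers no member was called and 0% of all genes were (0 of 12847 by edgeR, DESeq2 and limma-voom, with 846 genes at an unadjusted p under 0.05). Among the members 3 of 9 had an unadjusted p under 0.05. H19 differed by 3.32 ± 0.98 (adjusted p = 0.447, and 1.11 without the library with muscle RNA), Igf2 by 0.65 ± 0.29 (0.715) and Rian by 0.38 ± 0.19 (0.755). Meg3 differed by 0.35 ± 0.27 (adjusted p = 0.876 by edgeR), with 8 of 10 libraries above the control antibody median. The interaction of Prkar1a KD and Gcgr antibody, which asks whether the antibody effect differs with the knockdown, was called for 4.08% of all genes and for 0 of 9 members by edgeR, DESeq2 and limma-voom. Grb10 had the only unadjusted p under 0.05, with -0.55 ± 0.27 (adjusted p = 0.231).

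**Figure D4:**
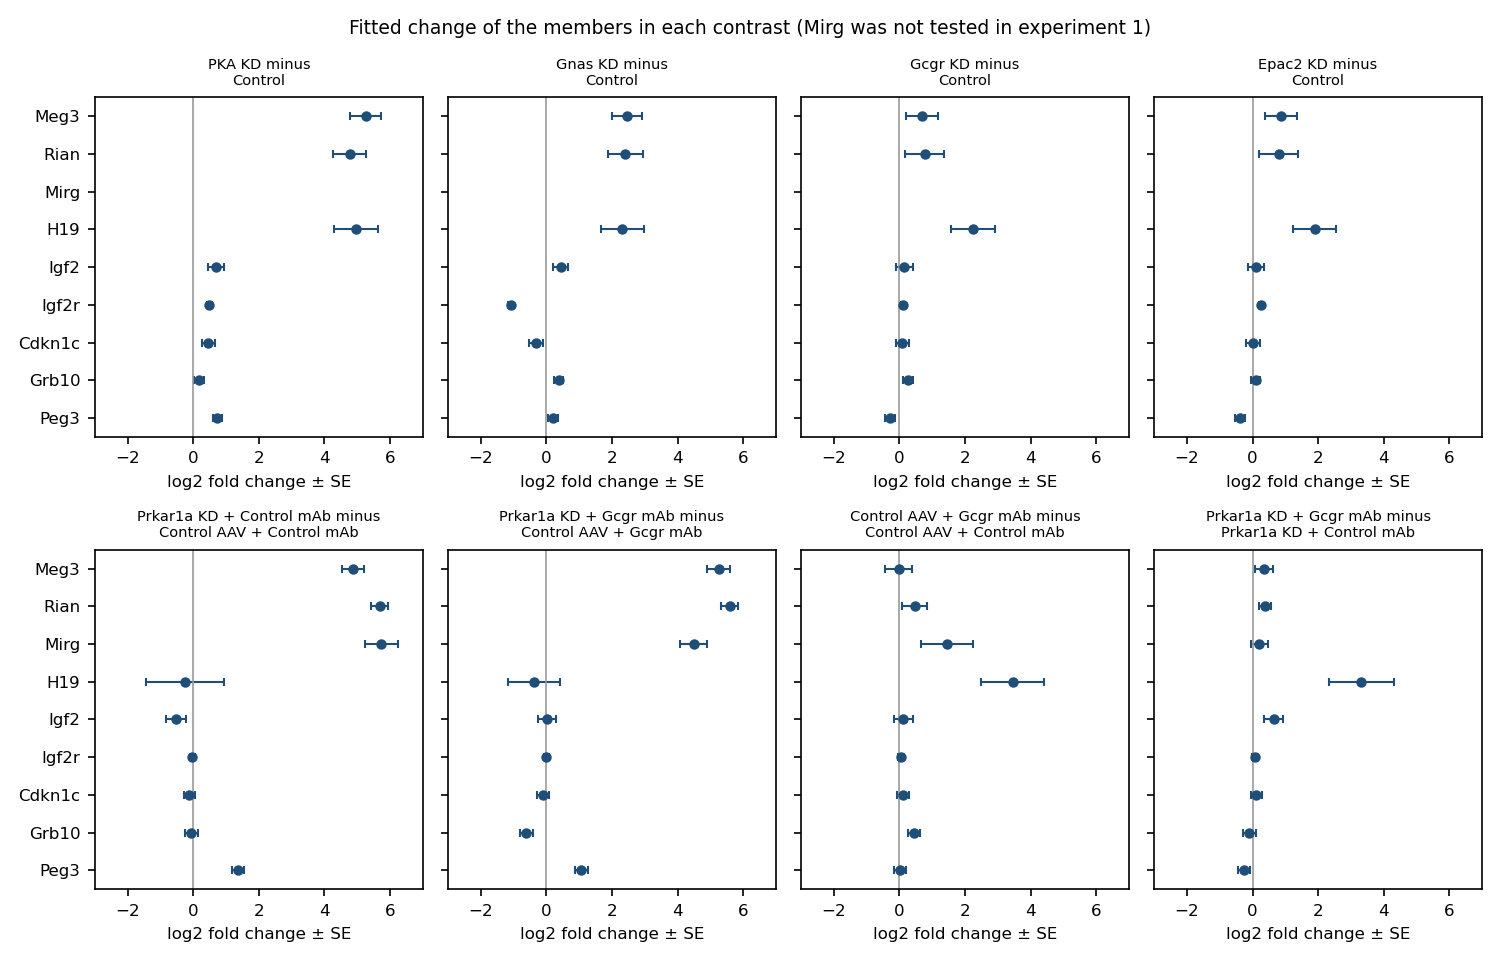
Fitted log2 fold change with its SE for each tested member in the 8 contrasts between groups, experiment 1 in the top row and experiment 2 in the bottom row; points right of the vertical line are higher in the group named first. Meg3, Rian and H19 lie far right in PKA KD, Meg3, Rian and Mirg in both Prkar1a KD contrasts, and H19 in both antibody contrasts, where its value depends on 1 library each.

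Igf2, the paternal growth factor beside H19, remained low throughout. Its medians were 0.692 CPM in PKA KD, 0.688 in Gnas KD, 0.537 in Gcgr KD, 0.56 in Epac2 KD and 0.503 in Control, all on overlapping ranges. The largest fitted change was 0.68 ± 0.24 in PKA KD, and it was 0.39 without the library at 2.26 CPM, where the next highest had 0.896. In experiment 2 the medians were 0.647 CPM in Prkar1a KD + Gcgr mAb, 0.327 in Prkar1a KD + Control mAb, 0.545 in Control AAV + Gcgr mAb and 0.494 in Control AAV + Control mAb. H19 and Igf2 were not correlated in any of 5 groups with enough counts, with r between -0.45 in Control and 0.39 in Gcgr KD livers (n = 10 each, all adjusted permutation p at or above 0.297).

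Igf2r, the receptor that clears insulin-like growth factor and sorts lysosomal enzymes, moved in a direction of its own. Its lowest, median and highest levels were 91.6, 110.0 and 120.0 CPM in PKA KD, 31.6, 34.8 and 50 in Gnas KD, 74.8, 82.8 and 90.9 in Gcgr KD, 70.6, 91.7 and 117 in Epac2 KD, and 66.0, 79.0 and 83.3 in Control. Every Gnas KD library lay below every Control library and every PKA KD library above. The fitted log2 changes were -1.09 ± 0.069 in Gnas KD, 0.49 ± 0.069 in PKA KD, 0.25 ± 0.068 in Epac2 KD and 0.10 ± 0.068 in Gcgr KD. The Gnas KD library with the highest Igf2r, 50 CPM, was the one with the most Gnas and the least Meg3. The next, at 38.2 CPM of Igf2r, was the one with the least Gnas, 34.9 CPM, and the most Meg3, 16.5 CPM. The relation of Igf2r to residual Gnas was not tested. In experiment 2 the group medians lay between 50.8 and 54.5 CPM, and the Prkar1a KD changes were -0.03 ± 0.079 under the control antibody and -0.01 ± 0.079 under the Gcgr antibody. Airn, the antisense RNA that silences the paternal Igf2r copy, had medians of 0.954 CPM in Gnas KD and 0.923 in Control. Libraries were strand-specific per the labels, but the setting of the counting is not given in the sources used here, so reads of overlapping antisense genes may be mixed.

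Peg3, a paternally expressed zinc-finger protein, was high in PKA KD and in both Prkar1a KD groups. Its lowest, median and highest levels were 6.27, 7.96 and 10.9 CPM in PKA KD against 3.7, 4.84 and 5.88 in Control, with no overlap. The Gnas KD, Gcgr KD and Epac2 KD medians were 5.45, 3.79 and 3.39 CPM, on ranges that overlapped Control. Only 1 of 10 Gcgr KD and 1 of 10 Epac2 KD libraries lay above the Control median of Peg3, whereas all 10 of each did for Meg3. In experiment 2 the levels were 5.07, 9.3 and 13 CPM in Prkar1a KD + Gcgr mAb against 2.35, 4.05 and 8.2 in Control AAV + Gcgr mAb, which overlapped. They were 8.41, 11.1 and 13.9 CPM in Prkar1a KD + Control mAb against 1.28, 4.67 and 6.86 in Control AAV + Control mAb, which did not overlap. Fitted log2 changes of Peg3 were 0.73 ± 0.14 in PKA KD, 1.07 ± 0.19 in Prkar1a KD under the Gcgr antibody and 1.36 ± 0.19 under the control antibody.

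Grb10 and Cdkn1c had overlapping ranges in all contrasts. Grb10 medians ran from 3.12 CPM in Control to 4.41 in Gnas KD, and its Gnas KD change was 0.37 ± 0.15. In experiment 2 the log2 change of Grb10 was -0.61 ± 0.19 in Prkar1a KD + Gcgr mAb against Control AAV + Gcgr mAb, with 0 of 10 libraries above the median of that control group, and -0.06 ± 0.19 under the control antibody. Cdkn1c, a cell-cycle inhibitor also called p57, had medians of 1.81 CPM in PKA KD and 1.3 in Control, a change of 0.46 ± 0.20. Its Prkar1a KD changes were -0.10 ± 0.18 and -0.12 ± 0.18 under the Gcgr and the control antibody.

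**Figure D5:**
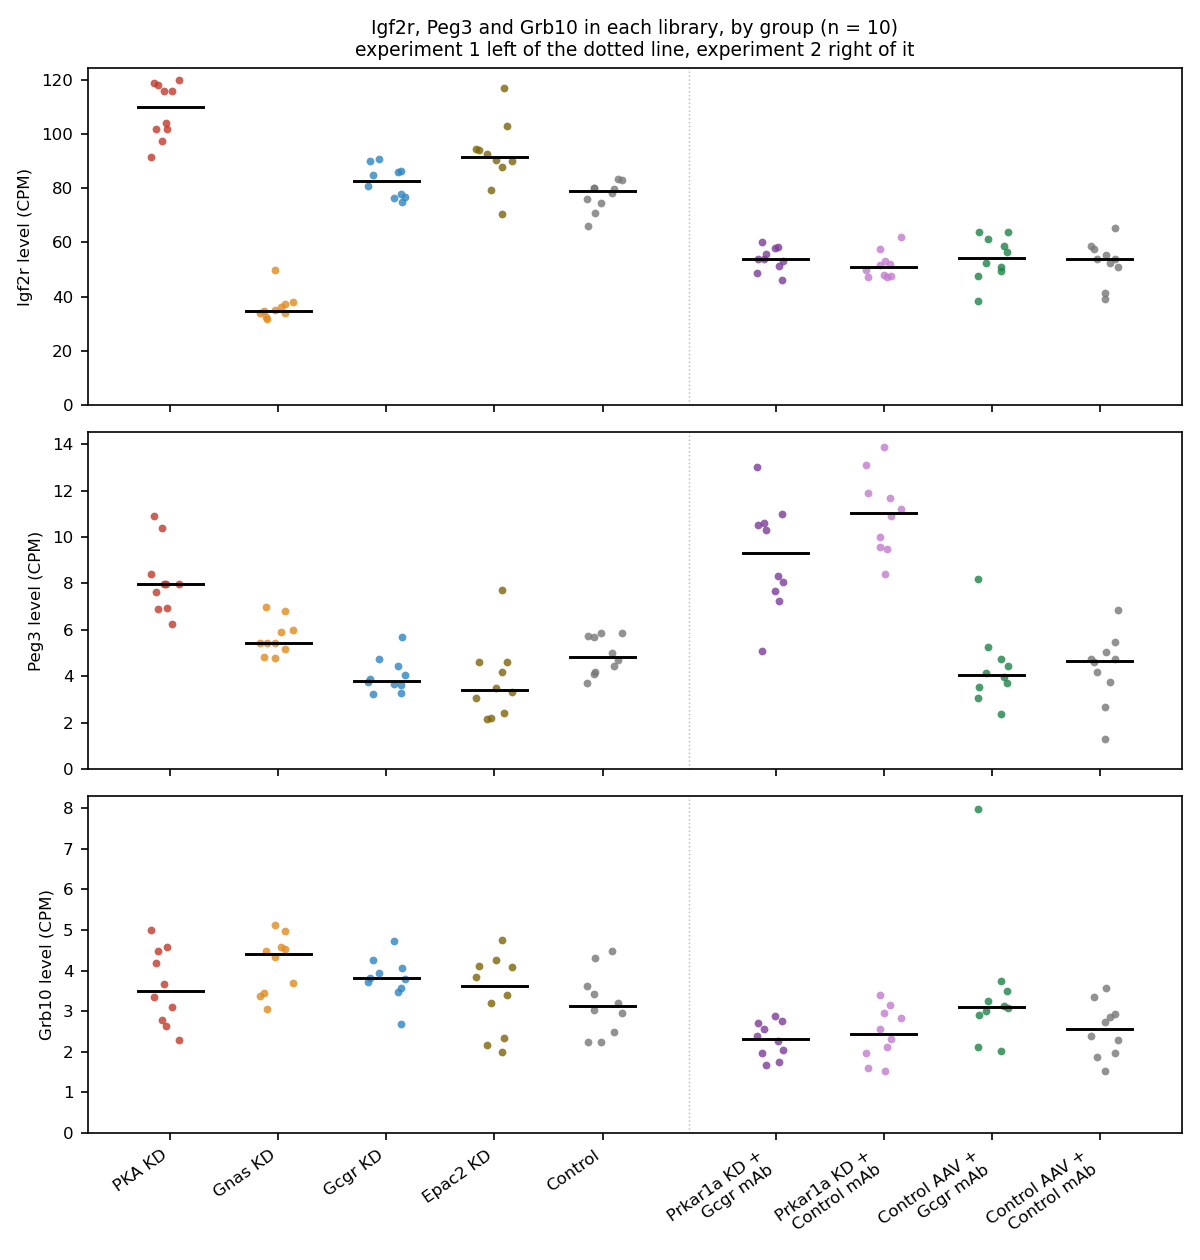
Levels of Igf2r, Peg3 and Grb10 in each library (CPM, linear axis from 0), with groups along the x axis, 1 point per library and a bar at the group median. All Gnas KD libraries lie at or below 50 CPM of Igf2r and all Control libraries at or above 66.0, and Peg3 is high in PKA KD and both Prkar1a KD groups.

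Counted over the tested members, 6 of 8 were called in PKA KD, where 32.4% of all genes were called; these were Meg3, Rian, H19, Igf2, Igf2r and Peg3, all higher. In Gnas KD 4 of 8 were called against 15.2% of all genes, with Meg3, Rian and H19 higher and Igf2r lower, and limma-voom called only 1 of them. In Gcgr KD 1 of 8 (H19) was called against 7.23%, and in Epac2 KD 1 of 8 (Igf2r) against 4.56%. In Prkar1a KD under the Gcgr antibody 5 of 9 were called against 53.1%, with Meg3, Rian, Mirg and Peg3 higher and Grb10 lower. Under the control antibody 4 of 9 were called against 56.2%, namely Meg3, Rian, Mirg and Peg3. The H19 call in Gcgr KD was lost without any of 3 libraries (log2 change 1.92, 2.0 or 2.10), the Igf2r call in Epac2 KD without replicate 10 (0.21), and the Igf2 call in PKA KD without replicate 3 (0.39) or Control replicate 2 (0.61). Nothing is read from these counts, since the contrasts were used to choose the genes. The median log2 change over the tested members was 0.70 in PKA KD, 0.40 in Gnas KD, 0.20 in Gcgr KD, 0.18 in Epac2 KD, 0.01 in Prkar1a KD under the Gcgr antibody and -0.03 under the control antibody. The experiment 1 contrasts share the Control libraries, so their values are not independent of each other.

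Group ranges that did not overlap were also counted. Between PKA KD and Control this held for Meg3, Rian, H19, Igf2r and Peg3, and for 5.34% of all tested genes. Between Gnas KD and Control it held for Igf2r, and for 1.5% of all genes. For Prkar1a KD under the Gcgr antibody it held for Meg3, Rian and Mirg (10.4% of all genes), and under the control antibody for these and Peg3 (15.1%). No member separated in Gcgr KD or Epac2 KD.

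Other imprinted genes, from a list of 69, were called in both directions. Of 45 tested in PKA KD, 10 were called higher and 5 lower, a share near the 32.4% of all genes, with a median log2 change of 0. Dio3os, at the far end of the Dlk1-Dio3 cluster, was higher (2.35 ± 0.56), as were Snurf (1.48 ± 0.31) and Peg13 (0.66 ± 0.12). Snurf shares a transcript with Snrpn, and its value is uncertain because expected counts can be split between them. Snurf averaged 13.2 CPM in PKA KD against 4.72 in Control, while Snrpn averaged 4.02 against 5.82 and was at 0 in 6 of 10 PKA KD libraries and 1 of 10 Control libraries. Tfpi2 (-1.24 ± 0.11), Commd1 (-0.87 ± 0.074) and the amino acid transporter gene Slc38a4 (-0.54 ± 0.09) were lower. In Gnas KD 0 of 44 were higher and 2 lower, Slc38a4 (-0.53 ± 0.09) and Tfpi2 (-0.50 ± 0.10). In Gcgr KD 0 of 45 were higher and 2 lower, Slc38a4 (-0.50 ± 0.09) and Ago2 (-0.35 ± 0.10). In Epac2 KD 1 was higher, H13 (0.22 ± 0.067), and 2 lower, Zrsr1 (-0.35 ± 0.098) and Nap1l4 (-0.33 ± 0.048). Among all genes 15.2%, 7.23% and 4.56% were called in Gnas KD, Gcgr KD and Epac2 KD.

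In Prkar1a KD the same list was called in both directions. Under the Gcgr antibody 12 of 42 were called higher and 14 lower, and under the control antibody 13 higher and 15 lower, each with a median log2 change of 0. The shares of all genes called were 53.1% and 56.2%. Under the Gcgr antibody Slc22a3, an organic cation transporter gene (2.14 ± 0.17), Ddc, which encodes DOPA decarboxylase (1.84 ± 0.12), and Slc38a4 (1.0 ± 0.095) were highest, and Tnfrsf23 (-1.91 ± 0.37), Osbpl5 (-1.50 ± 0.27) and Gatm (-0.82 ± 0.15) lowest. Under the control antibody Peg10 (1.38 ± 0.32), Ddc (1.30 ± 0.12) and Slc22a3 (1.19 ± 0.17) were highest, and Tnfrsf23 (-2.60 ± 0.38), Sfmbt2 (-1.59 ± 0.31) and Tfpi2 (-1.46 ± 0.11) lowest. No rise of Dio3os beside Meg3 was seen there, but its levels were near the floor, with few counts behind each median. Its medians were 0.0259 CPM in Prkar1a KD + Gcgr mAb, 0.0567 in Prkar1a KD + Control mAb, 0.326 in Control AAV + Gcgr mAb and 0.0614 in Control AAV + Control mAb, against 0.969 in PKA KD and 0.139 in Control.

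Genes that set, maintain or read imprints were tested as a list of 13. In PKA KD the de novo methyltransferase gene Dnmt3b was higher (1.14 ± 0.24), and Zhx2 (-0.23 ± 0.049), a repressor that silences H19 and Afp in postnatal mouse liver, and Ctcf (-0.18 ± 0.051), the insulator protein of the H19-Igf2 control region, were lower; the other 9 of 12 did not pass. In Gnas KD 2 of 12 passed, a share near that of all genes. These were Uhrf1 (1.21 ± 0.31) and Dnmt1 (0.24 ± 0.078), which copy methylation at replication, and both were higher. In the same contrast 6 of 7 cell-cycle markers were called higher, and the relation to them was not tested. The shares of all genes called were 32.4% in PKA KD and 15.2% in Gnas KD. In Prkar1a KD 6 of 11 passed under each antibody, a share near the 53.1% of all genes under the Gcgr antibody and 56.2% under the control antibody. Uhrf1 was higher (1.67 ± 0.39 under the Gcgr antibody, 1.37 ± 0.40 under the control antibody), and so were Dnmt1 under the Gcgr antibody (0.57 ± 0.083) and Dnmt3b under the control antibody (0.67 ± 0.19). Zbtb20 was lower (-0.49 ± 0.15 under the Gcgr antibody, -0.47 ± 0.15 under the control antibody), and Tet3 was lower under the Gcgr antibody (-0.29 ± 0.10). In the antibody contrast with Control AAV, 1 of 11, Trim28, was higher (0.17 ± 0.056, edgeR adjusted p = 0.0415), and in Gcgr KD and Epac2 KD 0 of 12 passed. Among all genes 8.19%, 7.23% and 4.56% were called in these contrasts, in that order.

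Markers of the fetal liver are given because H19 is a fetal liver RNA. Afp, the fetal albumin-like protein, was higher in PKA KD (1.63 ± 0.17) and Gnas KD (1.54 ± 0.17), and lower in Prkar1a KD under the Gcgr antibody (-0.81 ± 0.30) and the control antibody (-0.98 ± 0.33). The oncofetal proteoglycan gene Gpc3 was higher in PKA KD (1.26 ± 0.27), and Igf2bp2, an RNA-binding protein gene, in Gnas KD (0.85 ± 0.25). Only 6 of the 13 listed fetal genes were tested. Of these 3 were called higher in PKA KD, 2 in Gnas KD and 0 in Gcgr KD and in Epac2 KD, with none lower. The shares of all genes called were 32.4%, 15.2%, 7.23% and 4.56%. With 6 genes nothing is read from these counts. In Prkar1a KD Sox4 was the only one called higher (0.65 ± 0.26 under the Gcgr antibody, 1.14 ± 0.26 under the control antibody). There were 3 lower under the Gcgr antibody, Tmsb10 among them (-0.66 ± 0.21), and 1 lower under the control antibody. Among all genes 53.1% and 56.2% were called under the Gcgr and the control antibody.

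Of 12 genes of the IGF axis, 1 was called higher in PKA KD, the IGF carrier Igfals (0.60 ± 0.24), and 3 lower. Among those 3 were the binding proteins Igfbp3 (-0.70 ± 0.17) and Igfbp4 (-0.38 ± 0.10). In that contrast 32.4% of all genes were called. In Gnas KD 1 of 12, Igfbp3, was called higher (0.56 ± 0.17), where 15.2% of all genes were called. In Prkar1a KD 5 of 12 were higher and 4 lower under the Gcgr antibody, where 53.1% of all genes were called. Under the control antibody 4 were higher and 3 lower, where 56.2% of all genes were called. Igfbp1 was higher in both (2.20 ± 0.38 and 3.04 ± 0.39), Irs1 under the Gcgr antibody (1.94 ± 0.12) and Irs2 under the control antibody (2.15 ± 0.24). Igfbp3 was lower in both (-0.86 ± 0.18 and -0.78 ± 0.18), and so was Igfbp6 (-0.73 ± 0.29 and -0.95 ± 0.29). With the Gcgr antibody in Control AAV livers Igfbp2 (0.87 ± 0.26, edgeR adjusted p = 0.0321) and Igfals (0.44 ± 0.11, 0.00667) were higher and Irs1 lower (-0.38 ± 0.12, 0.0456). There 8.19% of all genes were called.

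Stellate and endothelial cells can also hold Meg3 RNA, so their marker levels are given beside it. The 12 stellate markers had a lowest and median sum of 352 and 423 CPM in PKA KD, 424 and 626 in Gnas KD and 366 and 449 in Control. They summed to 197 to 347 CPM in Prkar1a KD + Gcgr mAb, 200 to 322 in Prkar1a KD + Control mAb, 207 to 794 in Control AAV + Gcgr mAb and 252 to 372 in Control AAV + Control mAb. The 10 endothelial markers had a lowest and median sum of 233 and 397 CPM in PKA KD against 273 and 452 in Control, and ran from 116 to 272 in Prkar1a KD + Control mAb against 146 to 315 in Control AAV + Control mAb. They ran from 134 to 244 CPM in Prkar1a KD + Gcgr mAb against 199 to 350 in Control AAV + Gcgr mAb. Under the Gcgr antibody 9 of 10 endothelial, 7 of 10 Kupffer cell and 5 of 12 stellate markers were called lower in Prkar1a KD. Their median log2 changes were -0.54, -0.61 and -0.25, and 3 of 7 cell-cycle markers were called higher. The share of all genes called in either direction was 53.1%. Under the control antibody 2 of 10 endothelial markers were lower and 1 of 10 Kupffer cell markers was higher. In the same contrast 2 of 12 stellate markers were higher and 4 lower, and 5 of 7 cell-cycle markers were higher. The share of all genes called there was 56.2%. The stellate and endothelial sums of each knockdown group overlapped those of its control. Within knockdown groups none of 12 correlations of Meg3 with them passed. With 10 libraries each, the lack of a call does not show the lack of a relation. H19 rose with the stellate sum in PKA KD livers by rank (rho = 0.88, n = 10, adjusted permutation p = 0.0322), while Pearson's r was 0.84 (adjusted p = 0.0616) and 0.92 without the 2 libraries farthest from the median. In Epac2 KD livers r was 0.81 (rho = 0.57, n = 10, adjusted permutation p = 0.0616) and 0.15 without those 2 libraries. In Gnas KD 5 of 12 stellate markers and 6 of 7 cell-cycle markers were called higher, and in PKA KD 0 of 12 stellate markers. The shares of all genes called were 15.2% in Gnas KD and 32.4% in PKA KD. The hepatocyte sum had medians of 40600 and 35400 CPM in Prkar1a KD under the Gcgr and the control antibody, against 74000 and 81700 in Control AAV. In all 20 relations with marker sums were computed, and the part of these markers in the member levels was not tested.

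Over the 50 libraries of experiment 1 the genes whose log2 CPM most resembled Meg3 were Rian (r = 0.952), Cyp2d12 (0.905), Lrrc3 (0.896), Tpcn1 (0.895) and H4c8 (0.884). Those most like H19 were Defb1 (0.86), Pls1 (0.858), Src (0.85), Sptlc2 (0.843) and Gipc2 (0.843). The libraries share 5 groups, so these values are descriptions. Over the 40 libraries of experiment 2 Rian kept its likeness to Meg3 (r = 0.985), whereas Lrrc3, Tpcn1 and H4c8 had r of -0.60, -0.87 and -0.462 with it. Defb1, Pls1, Src and Sptlc2 had r of 0.499, 0.311, 0.459 and 0.358 with H19 there.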

How the data were processed

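Polyadenylated mouse liver RNA of 90 libraries was sequenced with a strand-specific kit, per the labels. The authors deposited 2 tables of expected counts per gene, 1 per experiment, 8.69% and 8.55% of whose entries were fractional; they were rounded to whole numbers. Per the submitters' processing notes bcl2fastq 2.17, FastQC and GRCm38/mm10 were used; the aligner, counter and its strand setting are not stated in the sources used. Each table was fitted over all its groups with edgeR 4.0.16 (R 4.3.3; TMM scaling, filterByExpr, robust quasi-likelihood F test), with Benjamini-Hochberg adjustment over the 13574 and 12847 genes tested and a threshold of 0.05. Levels are CPM on TMM-scaled library sizes. Correlations used log2 CPM with a prior count of 2, where at least 7 of 10 libraries had 10 counts, and 100000 permutations, two-sided (scipy 1.17.1). The fits were tested on simulated data. The alternatives were RLE scaling, no low-count filter, DESeq2 1.42.0, limma-voom 3.58.1, a replicate block, only the groups compared, a prior count of 0.5, leaving out each library, and leaving out the libraries with muscle or pancreas RNA, the last chosen after the data were seen. The members and lists were chosen with earlier results of these data known. Named genes were the members, up to 3 called genes per direction from the other imprinted list and up to 2 from the other lists, by size of change, and the 5 genes most like Meg3 and H19. No libraries of a group agreed within sampling noise (lowest chi-squared per degree of freedom 7.93). Same-numbered libraries did not deviate together, so numbers were not taken as pairs.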

Additional observations from a re-analysis of the deposited data

Results flagged for a closer look

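Of 75 sets of member and group, 20 held a library far from the other 9. The genes were chosen partly for wide spread between libraries, so these sets are a description and are not set against chance. In Epac2 KD these were Meg3 at 6.12 and Rian at 1.06 CPM in replicate 10, H19 at 10.6 in replicate 4 and Peg3 at 7.72 in replicate 7, with group medians of 1.44, 0.252, 0.775 and 3.39. In Gnas KD they were Rian at 4.05 CPM in replicate 4, Mirg at 0.494 and a low Igf2 at 0.206 in replicate 10, and Igf2r at 50 in replicate 1. In PKA KD it was Igf2 at 2.26 CPM in replicate 3, in Gcgr KD Cdkn1c at 2.47 in replicate 4, and in Control Igf2 at 0.984 in replicate 10.

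In experiment 2 H19 was 41.9 CPM in Prkar1a KD + Gcgr mAb replicate 2, the library with muscle RNA. Control AAV + Gcgr mAb replicate 2, with high cell-cycle markers, had H19 at 42.9, Grb10 at 7.98 and Peg3 at 8.2 CPM, where the next values of the group were 4.12, 3.75 and 5.27. Replicate 3 of that group, with pancreas RNA, had Rian at 1.16 CPM. In Control AAV + Control mAb replicate 3 had Meg3 at 6.7 and Rian at 1.42 CPM, replicate 7 had H19 at 1.73 and replicate 1 had Cdkn1c at 2.6.

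The antibody effect differed with the Prkar1a knockdown for 4 of 42 other imprinted genes, by the interaction term of edgeR. That term was called for 4.08% of all genes. The log2 difference was 0.95 for Slc22a3 (adjusted p = 0.0155), 0.70 for Tfpi2 (0.00482), 0.64 for Slc38a4 (0.00348) and -0.75 for Gatm (0.0322).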

How the results depend on the processing

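Of the member log2 changes recomputed under the alternatives, 595 kept direction and side of the threshold, 24 reversed, 10 gained a call and 11 lost one. The number of members called moved to 0 with limma-voom and 2 with only the groups compared in Gcgr KD (0 to 1 leaving out libraries), to 1 with limma-voom in Gnas KD (4 to 5), to 2 with DESeq2 and limma-voom in Epac2 KD (0 to 2), and to 0 with limma-voom for the antibody in Control AAV (0 to 1). It was 5 to 7 in PKA KD leaving out libraries. All genes called for that antibody contrast were 608 with only the groups compared, and for the antibody in Prkar1a KD 0 to 1 leaving out libraries. Changes near 0 reversed. Cdkn1c in Epac2 KD was -0.02 with limma-voom and with the replicate block. Meg3 in the Control AAV antibody contrast was 0.01 with DESeq2, 0.27 with limma-voom and 0.05 with the replicate block. Igf2 in Prkar1a KD under the Gcgr antibody was -0.01 with RLE. The interaction of Rian was 0.13 and of Cdkn1c -0.02 without the libraries with muscle or pancreas RNA.

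Leaving out libraries gave these ranges: Cdkn1c -0.07 to 0.15 in Gcgr KD and -0.08 to 0.09 in Epac2 KD; in Prkar1a KD under the control antibody H19 -0.44 to 0.15, Igf2r -0.07 to 0.01 and Grb10 -0.14 to 0.01, and under the Gcgr antibody H19 -2.60 to 1.27, Igf2 -0.09 to 0.11 and Igf2r -0.05 to 0.02. They were -0.19 to 0.47 for Meg3, -0.01 to 0.16 for Cdkn1c and -0.13 to 0.12 for Peg3 with the antibody in Control AAV. For the interaction they were -0.12 to 0.53 (Meg3), -0.46 to 0.04 (Rian), -2.35 to 1.53 (H19), -0.02 to 0.07 (Igf2r) and -0.06 to 0.14 (Cdkn1c). The cause was not tested. Same-numbered libraries had a mean correlation of deviations of 0.025 and 0.021, and 9 of 50 and 3 of 40 libraries correlated best with their own number. With the replicate block 1, 4 and 6 members were called in Gcgr KD, Gnas KD and PKA KD. The counts of passing correlations did not change with RLE or a prior count of 0.5. Depth limits Dlk1, Mirg, Dio3os in experiment 2 and the control levels of Rian and H19.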
